A study of Mus musculus with 23 samples.

Results

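The cytochrome P450 genes of families 2, 3 and 4 were examined in mouse lung, as the rows of the deposited expression tables whose symbol is Cyp2, Cyp3 or Cyp4 followed by a subfamily letter and a number. The rule took 72 of 24411 genes, 48 of them in family 2, 7 in family 3 and 17 in family 4. Bulk RNA sequencing covered 23 lung libraries in 7 groups, all on a C57BL/6 background, untreated and housed under barrier conditions. Rarres1 knockout (KO) embryos at embryonic day 19.5 (E19.5) and wild-type (WT) embryos of that age gave 3 lungs each, and their sex is not labelled. Male KO and male WT mice at 10 months gave 3 lungs each. At 18 months, male KO mice gave 3 lung tumours and 5 non-tumour lungs, and male WT mice gave 3 lungs. The library codes give tumours 1, 3 and 6 the numbers of non-tumour lungs 1, 3 and 6, while the titles number non-tumour lungs 6 and 7 as 4 and 5. The labels describe neither the tumour histology nor the way the knockout was made. Library totals lay between 23661200 and 46566600 counts. Rarres1 had 0 or 1 counts in each of the 14 KO libraries and 24 to 64 counts in each of the 9 WT libraries.

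P450 enzymes of these families insert oxygen into foreign compounds and into endogenous lipids, and they draw electrons from the reductase Por. Family 2 and 3 enzymes are best known for the metabolism of drugs and inhaled toxicants. Family 4 enzymes mainly hydroxylate fatty acids and eicosanoids at the end of the chain. In mouse lung, P450 activity is concentrated in club cells, the secretory cells of the airway, where it turns compounds such as naphthalene into toxic products.

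The lung used few of the 72 genes. No count was recorded for 19 members in any library, and 30 others had counts but passed the low-count filter of no comparison, leaving 23 members that were tested at least once. A mean of at least 1 FPKM (fragments per kilobase of gene, scaled to the size of the library, the authors' measure of level) in at least 1 group was reached by 19 members. Just below that line stood Cyp2a4, with a highest value of 0.92 FPKM, and Cyp2w1, with 1.06 FPKM in a single embryo. A gene cluster at chr7:25802469-27158564 (GRCm38.p6 coordinates) held 13 members, of which Cyp2s1, Cyp2b10, Cyp2a5 and Cyp2f2 reached 1 FPKM. The Cyp4f cluster at chr17:32452697-32947415 held 8 members, of which 5 reached that level. By contrast, 1 of 14 Cyp2c genes at chr19:39006940-40187286 did so, Cyp2c40, and in the tumour group only. Of 6 Cyp3a genes at chr5:145345149-146114978, 0 did so.

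Promoter sequences from RefSeq (GRCm38.p6) were found for 59 of the 72 members, each running from 250 bases before to 50 bases after the gene's start. The sequence TATAAA, searched on both strands, was in the promoter of 25 of the 59 members (42.4%), against 15.7% of all 27025 genes with a promoter. Among the 17 members at 1 FPKM or more it was in 3 (17.6%), and among the 42 other members in 22 (52.4%). The 3 were Cyp2a5, Cyp2e1 and Cyp2c40, the last of which reached that level in the tumour group only. The sequences printed here are the 150 bases before the start, on the gene's own strand. The first are those of the 3 most abundant members, Cyp2f2 (chr7:27119805-27119954, plus strand), Cyp4b1 (chr4:115647722-115647871, minus strand) and Cyp2b10 (chr7:25897508-25897657, plus strand), none of which holds TATAAA.
Cyp2f2: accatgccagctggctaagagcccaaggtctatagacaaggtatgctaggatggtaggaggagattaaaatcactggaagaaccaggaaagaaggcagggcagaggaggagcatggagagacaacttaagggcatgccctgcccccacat
Cyp4b1: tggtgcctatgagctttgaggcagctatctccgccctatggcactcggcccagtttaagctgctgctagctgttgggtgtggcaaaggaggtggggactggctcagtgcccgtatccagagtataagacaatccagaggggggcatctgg
Cyp2b10: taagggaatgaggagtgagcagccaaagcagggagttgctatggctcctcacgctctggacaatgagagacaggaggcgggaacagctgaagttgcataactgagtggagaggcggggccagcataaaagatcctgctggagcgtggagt

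Cyp2a5 (chr7:26835189-26835338, plus strand) and Cyp2a4 (chr7:26307042-26307191, plus strand) are shown as a pair because their levels differ widely although their promoters match at 294 of 300 aligned bases. TATAAA is in capitals.
Cyp2a5: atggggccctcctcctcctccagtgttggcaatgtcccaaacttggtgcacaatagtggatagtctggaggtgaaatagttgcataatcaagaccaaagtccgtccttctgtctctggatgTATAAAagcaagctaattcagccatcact
Cyp2a4: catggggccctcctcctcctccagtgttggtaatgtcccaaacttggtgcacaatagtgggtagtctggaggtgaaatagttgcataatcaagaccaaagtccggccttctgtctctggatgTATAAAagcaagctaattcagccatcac
Cyp2c40 (chr19:39812815-39812964, minus strand) and its neighbour Cyp2c69 (chr19:39886770-39886919, minus strand) had more counts in tumours than in all other libraries together. Capitals mark the longest run they share here, 93 bases.
Cyp2c40: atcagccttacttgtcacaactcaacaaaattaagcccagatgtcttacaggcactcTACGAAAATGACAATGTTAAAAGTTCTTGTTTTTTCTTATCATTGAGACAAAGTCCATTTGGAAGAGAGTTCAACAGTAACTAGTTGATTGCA
Cyp2c69: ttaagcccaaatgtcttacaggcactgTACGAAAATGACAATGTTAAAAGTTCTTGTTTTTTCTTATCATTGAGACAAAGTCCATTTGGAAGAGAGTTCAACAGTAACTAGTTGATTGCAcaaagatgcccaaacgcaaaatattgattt

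A small number of enzymes made up most of the summed P450 level. Cyp2f2, which activates naphthalene, had the highest mean FPKM in each of the 7 groups, and Cyp4b1, a family 4 enzyme that activates the lung toxin ipomeanol, had the second highest. At 10 months the 72 members summed to 2738 ± 57.9 FPKM in KO lungs and 3001 ± 175 FPKM in WT lungs (SD, n = 3 each). Cyp2f2 made up 65.9% ± 3.05 of that sum in KO lungs and 67.9% ± 0.41 in WT lungs. Cyp2f2, Cyp4b1 and the next member together held 89.6% ± 1.66 in KO lungs and 91.2% ± 1.29 in WT lungs. Among all genes of a library at 10 months, Cyp2f2 stood between the ranks of 22 and 24 in KO lungs and between 16 and 20 in WT lungs. At E19.5 its rank was 364 to 435 in KO lungs and 329 to 408 in WT lungs.

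**Figure D1:**
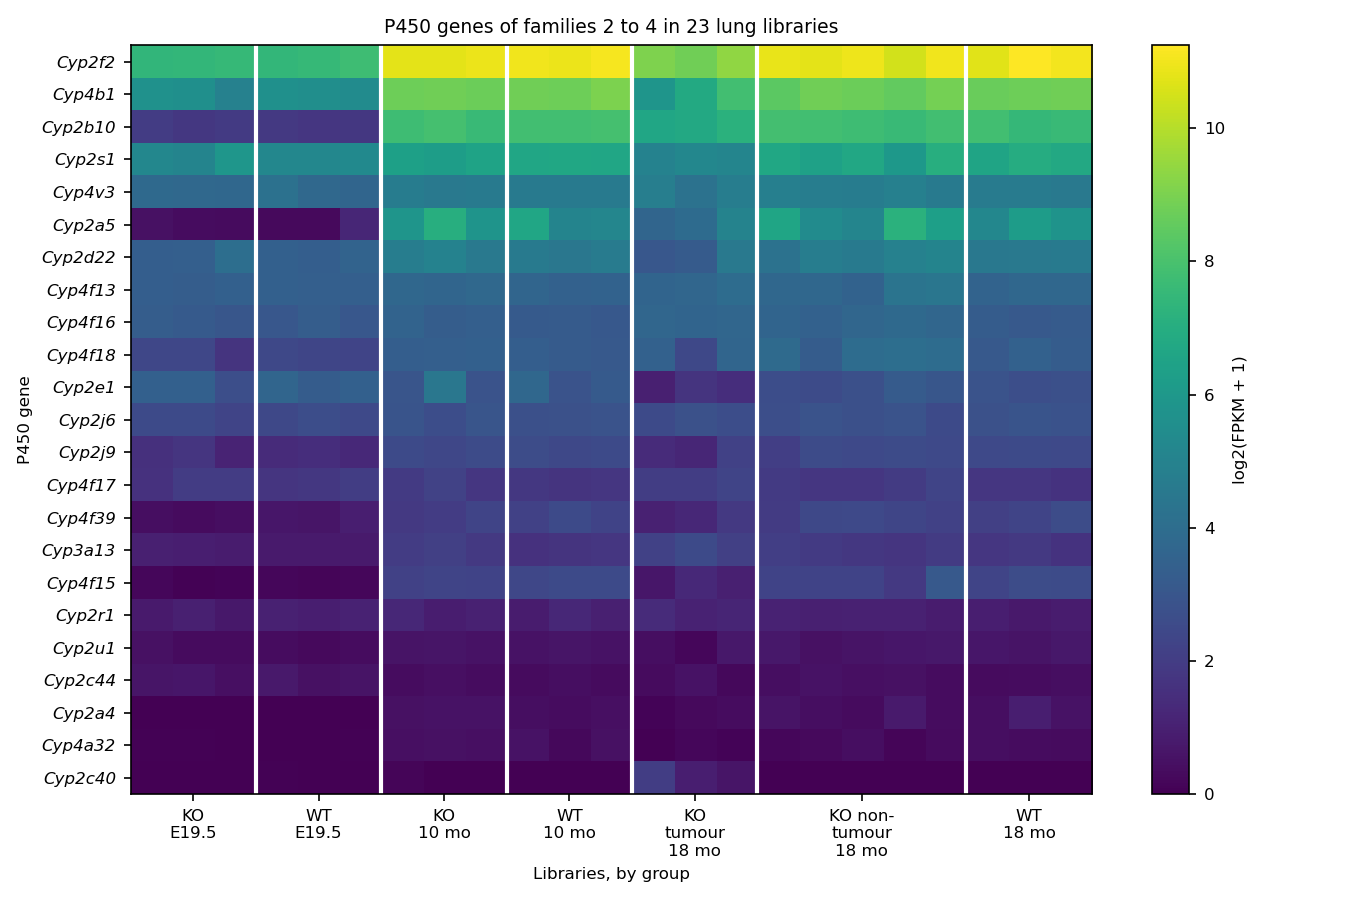
Levels of the 23 described P450 genes (rows, ordered by mean level) in the 23 libraries (columns, by group), as log2(FPKM + 1) in colour. Cyp2f2 is the top row in all groups, most rows are darker at E19.5, and Cyp2c40 at the bottom is brighter in the 3 tumours.

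After Cyp4b1, the order by group mean was Cyp2b10, Cyp2s1 and Cyp2a5 at 10 months in both genotypes and at 18 months in KO non-tumour and WT lungs. Cyp2s1 is a P450 expressed mainly outside the liver. The means of Cyp2s1 and Cyp2a5 were 83.0 ± 7.40 and 81.4 ± 44.7 FPKM in KO lungs at 10 months (SD, n = 3), so these neighbours in the order did not differ beyond their spread. Cyp4v3 and Cyp2d22 followed, at 23.8 ± 1.54 and 26.4 ± 3.76 FPKM in the same lungs. At E19.5 the order after Cyp4b1 was Cyp2s1, Cyp4v3 and Cyp2d22. Cyp4b1 and Cyp2s1 in KO embryos, at 42.6 ± 11.3 and 42.5 ± 14.5 FPKM, also did not differ beyond their spread (SD, n = 3).

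The growth of the lung from late gestation to 10 months was the widest contrast. In KO lungs, 18 of 22 tested members were higher at 10 months than at E19.5 and 0 were lower, where 60.5% of all genes tested were called, 31.1% higher and 29.4% lower. In WT lungs, 15 of 21 were higher and 1 was lower, where 62.8% of all genes were called, 31.6% higher and 31.2% lower. The median log2 fold change over tested members was 1.32 in KO lungs and 1.26 in WT lungs, where the median of all genes was 0.00 in both. The same 15 members were higher in both genotypes. Members that passed the low-count filter through the adult lungs alone included Cyp2a4, Cyp4f15 and, in KO lungs, Cyp4a32. Their calls depend on that selection. In bulk lung RNA, fewer cells of a type and less RNA per cell cannot be told apart. Since the sex of the embryos is not labelled and the adults were male, age and sex cannot be told apart either.

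Cyp2f2 had 1770.3, 1731 and 1917 FPKM in KO lungs at 10 months, against 168, 172 and 186 FPKM in KO lungs at E19.5. It had 2057, 1905 and 2152 FPKM in WT lungs at 10 months, against 171, 184 and 211 FPKM in WT lungs at E19.5. Every adult lung stood far above every embryonic lung. The difference was 3.42 ± 0.11 in KO lungs and 3.49 ± 0.10 in WT lungs on the log2 scale (log2 fold change ± SE, edgeR). Cyp4b1 had 432, 447 and 413 FPKM in KO lungs at 10 months, against 51.1, 46.9 and 29.8 FPKM at E19.5. Its values were 448, 434 and 515 FPKM in WT lungs at 10 months, against 49.0, 46.5 and 41.4 FPKM at E19.5. Its groups did not overlap, and its log2 fold changes of 3.39 ± 0.19 in KO and 3.41 ± 0.10 in WT lungs were close to those of Cyp2f2.

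Cyp2b10, the mouse P450 known for its induction by phenobarbital in liver, had a larger fold. It had 214, 241 and 197 FPKM in KO lungs at 10 months, against 2.95, 2.58 and 2.74 FPKM at E19.5. In WT lungs it had 229.5, 228 and 239 FPKM at 10 months, against 2.70, 2.39 and 2.56 FPKM at E19.5. These are 81.6-fold and 94.6-fold differences in KO and WT lungs. It made up 7.94% ± 0.84 of the P450 sum in KO lungs at 10 months, against 0.84% ± 0.06 at E19.5, and 7.75% ± 0.32 in WT lungs at 10 months, against 0.75% ± 0.06 at E19.5 (SD, n = 3 each).

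The Cyp2a pair, which in mouse hydroxylate coumarin (Cyp2a5) and steroids (Cyp2a4), was also far higher in adult lung, from a low start. Cyp2a5 had 56.3, 133 and 54.8 FPKM in KO lungs at 10 months, against 0.41, 0.31 and 0.24 FPKM at E19.5. In WT lungs it had 98.4, 32.6 and 34.8 FPKM at 10 months, against 0.21, 0.21 and 1.34 FPKM at E19.5. It was 258-fold higher in KO and 101-fold higher in WT lungs, with log2 fold changes of 8.01 ± 0.63 and 6.67 ± 0.98. The WT fold moved with single libraries, to 8.08 ± 1.24 without WT embryo 3 and 5.96 ± 0.75 without WT lung 1. WT embryo 3 also had a summed level of 558 FPKM over basal and squamous cell genes, against at most 3.55 FPKM in any other library, and the part of those cells in its Cyp2a5 level was not tested. Cyp2a4 stayed under 1 FPKM in all libraries, at 0.41 to 0.45 FPKM in KO and 0.29 to 0.36 FPKM in WT lungs at 10 months, against 0 in the 3 KO embryos and 0 to 0.03 FPKM in WT embryos. Both were called higher in both genotypes. Cyp2a4 had at most 1 count in an embryo and passed the low-count filter through the adult lungs alone, so its p depends on that selection. No fold is given for Cyp2a4, which had 0 FPKM in all embryos but WT embryo 2. Of the distinct runs of 75 bases in their transcripts, 22.3% for Cyp2a5 and 22.1% for Cyp2a4 also occur in other genes, mostly in each other, so the split of reads between them is uncertain.

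**Figure D2:**
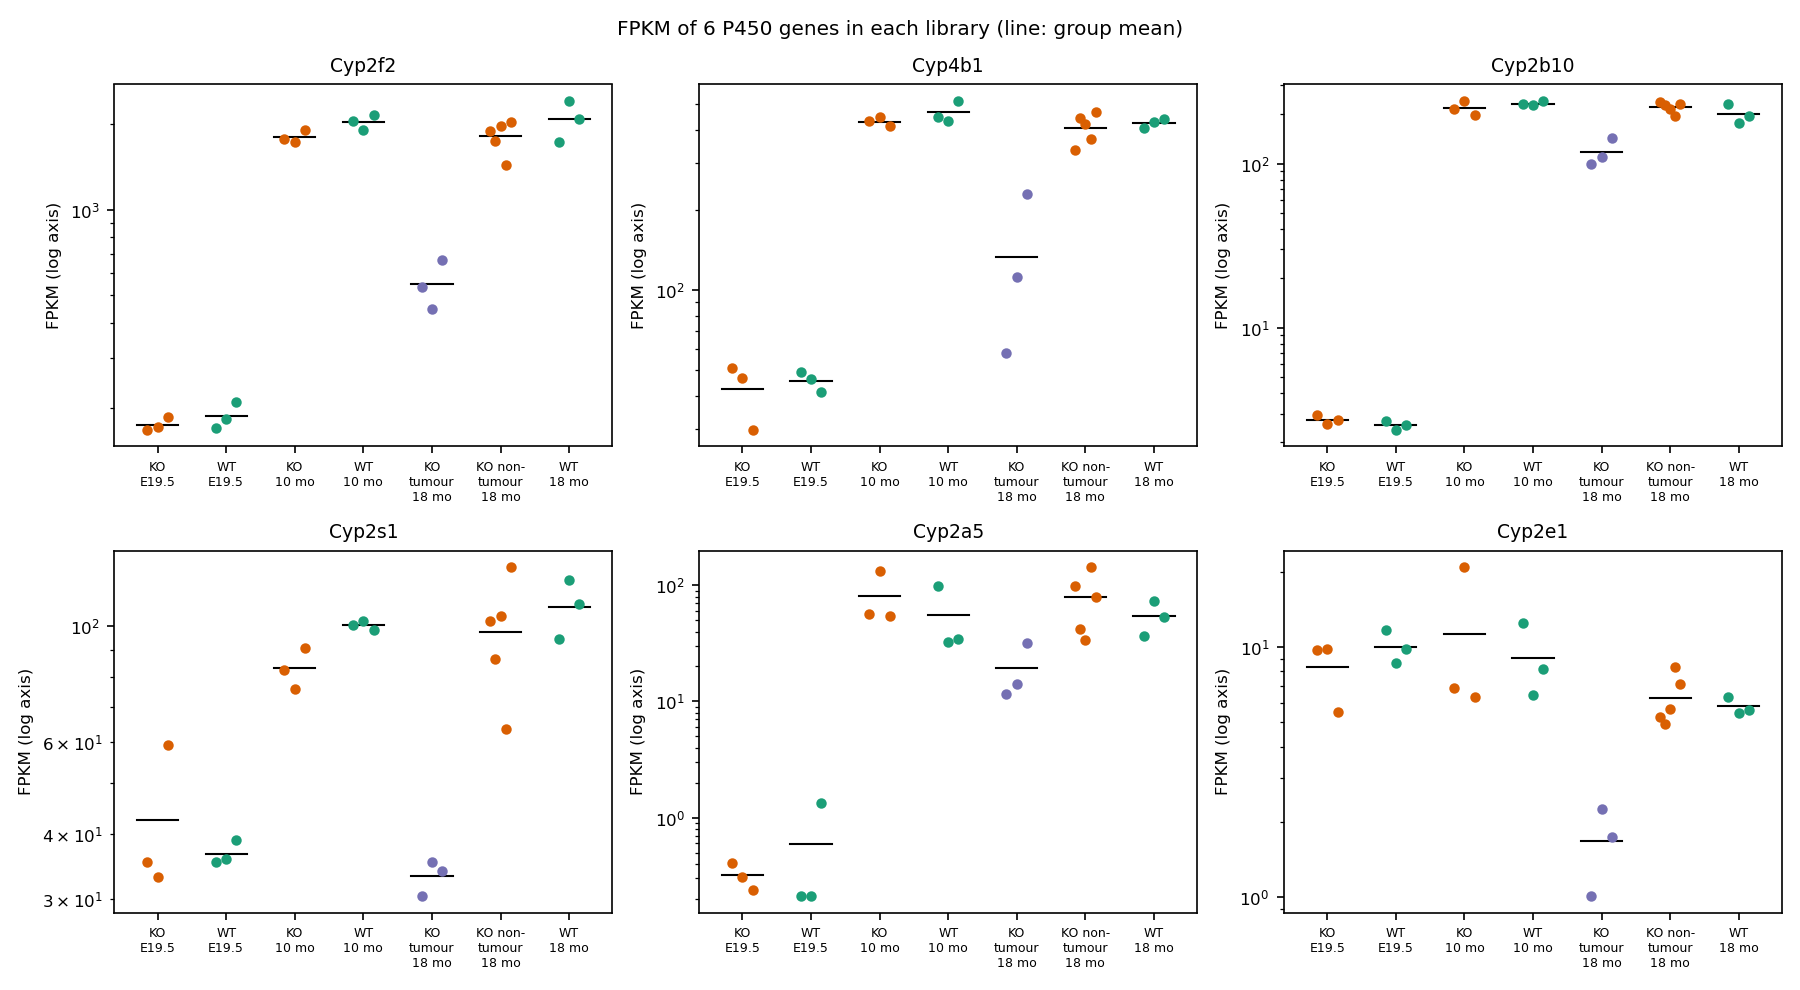
FPKM on a log axis for 6 P450 genes, with a point per library and a line at each group mean. Cyp2f2, Cyp4b1, Cyp2b10 and Cyp2a5 are low at E19.5 in both genotypes, and all 6 genes are lower in the 3 tumours than in the KO non-tumour lungs.

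Within family 4, Cyp4f15, a fatty acid hydroxylase, had the largest fold in both genotypes. It had 3.46, 3.93 and 3.84 FPKM in KO lungs at 10 months, against 0.14, 0.04 and 0.08 FPKM at E19.5, a 41.5-fold difference. In WT lungs it was 37.2-fold higher. Cyp4f39, whose human counterpart makes skin barrier lipids, was 11.1-fold higher in KO and 6.02-fold higher in WT lungs. The Cyp4f genes did not move as a block. Cyp4f18, which in mouse neutrophils inactivates leukotriene B4, was called higher in both genotypes, with log2 fold changes of 1.48 ± 0.21 in KO and 1.09 ± 0.12 in WT lungs. Cyp4f17 was called in neither, at 0.18 ± 0.24 in KO and -0.07 ± 0.18 in WT lungs. Cyp4f13 and Cyp4f16 were called in KO lungs, at 0.43 ± 0.09 and 0.34 ± 0.12, and not in WT lungs, at 0.22 ± 0.09 and 0.09 ± 0.10. Cyp4v3, a fatty acid hydroxylase, was higher in both, at 0.93 ± 0.07 in KO and 0.79 ± 0.14 in WT lungs. Cyp4a32 was tested in KO lungs, where it was called at 3.41 ± 0.42 with a mean of 0.40 ± 0.03 FPKM at 10 months, against 0.04 ± 0.02 at E19.5 (SD, n = 3).

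Smaller called differences were found for Cyp2s1, Cyp2d22, the arachidonic acid epoxygenases Cyp2j9 and Cyp2j6, the fatty acid hydroxylase Cyp2u1, and Cyp3a13, which alone among the Cyp3a genes reached 1 FPKM. Cyp2s1 was 2.01-fold higher in KO and 2.85-fold higher in WT lungs. Cyp3a13 was 3.50-fold and 3.03-fold higher, Cyp2j9 2.62-fold and 3.04-fold, and Cyp2d22 2.39-fold in each. Cyp2e1, which oxidises ethanol and small solvents, was called in neither genotype. Its means were 11.3 ± 8.21 FPKM in KO lungs at 10 months, against 8.36 ± 2.497 at E19.5, and 9.04 ± 3.12 FPKM in WT lungs at 10 months, against 10.0 ± 1.55 at E19.5 (SD, n = 3). Cyp2r1, a vitamin D hydroxylase of liver, was also called in neither. Cyp2c44 was called lower in WT lungs, with 0.25, 0.34 and 0.27 FPKM at 10 months, against 0.68, 0.42 and 0.53 FPKM at E19.5. Its log2 fold change was -0.91 ± 0.34 (adjusted p = 0.0393, edgeR), and the call was lost without WT embryo 1 (adjusted p = 0.171), WT embryo 3 (0.0611) or WT lungs 1, 2 and 3 in turn (0.115, 0.0505 and 0.119).

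No member's genotype effect was shown to differ between 10 months and E19.5. In edgeR 0 of 22 tested members were called, where 0.156% of all genes were, 0.0625% with a higher and 0.0938% with a lower effect at 10 months. DESeq2 also called 0 members. In edgeR, 1215 of all 15994 genes tested had an unadjusted p under 0.05, and among the members 1 did. That member was Cyp4f39, with a difference of 0.88 ± 0.33 on the log2 scale. The calls in KO lungs alone are therefore not shown to differ from WT lungs. The weakest calls were lost without single libraries. The adjusted p of Cyp2u1 in KO lungs, 0.046 with all libraries, was 0.142 and 0.112 without KO embryos 2 and 3, and 0.106, 0.107 and 0.076 without KO lungs 1, 2 and 3. In WT lungs, 0.0155 with all libraries, it was 0.059 without embryo 2 and 0.0669 without lung 2. That of Cyp4f16 in KO lungs, 0.0312 with all libraries, was 0.0746 and 0.0699 without KO embryos 2 and 3, and 0.127 and 0.057 without KO lungs 1 and 3.

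Several lists of genes that work beside the P450s had many higher calls at 10 months too. Over all genes tested, 31.1% were called higher and 29.4% lower in KO lungs, and 31.6% and 31.2% in WT lungs. The P450s of other families and the club cell genes were not far above those shares in higher calls. Of 19 other phase I enzymes tested, 17 were higher in KO and 17 in WT lungs, with 0 lower in either. Of the phase II enzymes, which conjugate P450 products, 15 of 20 were higher and 1 lower in KO lungs, and 13 of 19 were higher and 2 lower in WT lungs. The electron transfer and heme supply list had 6 of 9 higher in each genotype, among them Por at 1.44 ± 0.14 in KO and 1.19 ± 0.08 in WT lungs. Xenobiotic transporters had 8 of 10 higher in each genotype, with 0 lower in KO and 2 lower in WT lungs. P450s of other families had 5 of 13 higher and 1 lower in KO lungs, and 6 of 13 higher and 1 lower in WT lungs. Among receptors and other regulators of P450 genes the calls ran the other way, with 3 of 17 higher and 9 of 17 lower in each genotype. Among 11 club cell genes, 5 were higher and 3 lower in KO lungs, and 5 were higher and 2 lower in WT lungs. Their summed level was 159893 to 181432 FPKM in KO lungs at 10 months, against 6731 to 10192 FPKM at E19.5, and 172297 to 200839 FPKM in WT lungs, against 8751 to 8975 FPKM. At 10 months nearly all of that sum was Scgb1a1, the main club cell secretory protein. Cell types other than club cells differed as well, with 8 of 9 alveolar macrophage genes higher in each genotype. Of 8 alveolar type 1 cell genes, 6 were higher in each, and 1 was lower in KO lungs. Ciliated cell genes were higher for 6 of 10 in KO and 10 of 10 in WT lungs. Other lists were divided. Of 9 alveolar type 2 cell genes, 3 were higher and 2 lower in KO, and 2 higher and 4 lower in WT lungs. Of 9 fibroblast genes, 2 were higher and 4 lower in KO, and 4 higher and 4 lower in WT lungs. The part of cell numbers in the P450 differences was not tested.

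**Figure D3:**
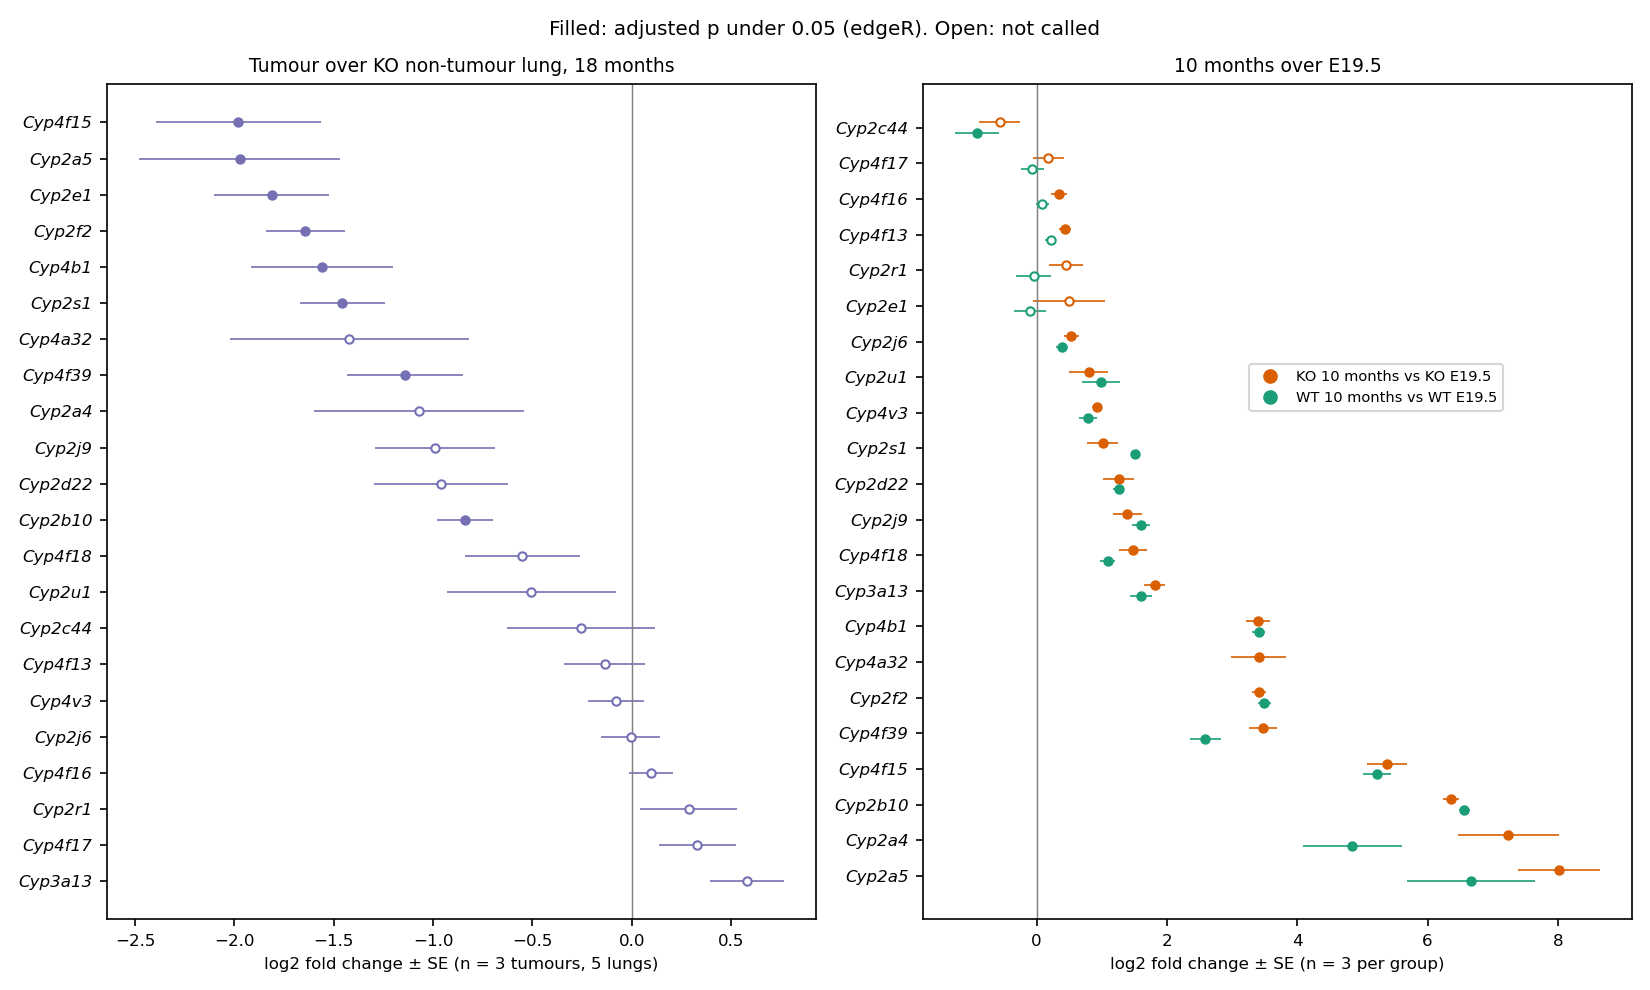
Log2 fold changes ± SE of tested P450 genes, tumour over KO non-tumour lung at 18 months on the left (n = 3 and 5) and 10 months over E19.5 on the right (n = 3 per group), with filled points at an adjusted p under 0.05 in edgeR. Filled points on the left lie below 0, Cyp2c40 is not drawn because no count was recorded for it in non-tumour lungs, and on the right filled points lie above 0 except Cyp2c44 in WT.

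The tumours differed from non-tumour lung in their P450 levels, with the abundant airway enzymes lower and a Cyp2c gene higher. Of 23 tested members, 8 were lower in tumours and 1 was higher. The higher member, Cyp2c40, had no count in non-tumour lungs and passed the low-count filter through the tumours alone. Its call depends on that selection. Over all genes tested, 13.8% were called, with 6.6% lower and 7.2% higher. The median log2 fold change was -0.84 over the tested members and -0.01 over all genes, with 18 members below 0 and 5 above. The P450 sum was 946 ± 234.1 FPKM in tumours (SD, n = 3) and 2746 ± 270.2 FPKM in KO non-tumour lungs (SD, n = 5). With the shared code number as a block over the 3 pairs of tumours and non-tumour lungs, 0 of 22 tested members were called and 135 genes in all, against 2134 without the block. The blocked value is therefore given beside each called member.

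Cyp2f2 had 534, 448 and 666 FPKM in tumours 1, 3 and 6, against 1888, 1751, 1964, 1432 and 2034 FPKM in KO non-tumour lungs 1, 2, 3, 6 and 7. Every tumour was below every non-tumour lung, and Cyp2f2 was the most abundant member in tumours as well. The difference was -1.64 ± 0.20 on the log2 scale (adjusted p = 0.0023, edgeR), and -1.62 with the block (adjusted p = 0.0681). Cyp2s1 had 30.4, 35.3 and 34.0 FPKM in tumours, against 102, 86.3, 104, 63.5 and 129 FPKM in non-tumour lungs. Its difference was -1.46 ± 0.21 (adjusted p = 0.004), and -1.34 with the block (adjusted p = 0.0543). The tumour values were close together, and the groups did not overlap. Cyp2b10 had 99.8, 109 and 143 FPKM in tumours, against 237, 228, 215, 196 and 231 FPKM in non-tumour lungs. It was the least reduced of the called members, at -0.84 ± 0.14 (adjusted p = 0.0062) and -0.83 with the block (adjusted p = 0.101). Its share of the P450 sum was 12.5% ± 1.07 in tumours and 8.10% ± 0.53 in non-tumour lungs (SD, n = 3 and 5).

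Cyp4b1 differed widely among the tumours. It had 57.8, 112 and 229 FPKM in tumours 1, 3 and 6, against 337, 443, 422, 370.2 and 467 FPKM in non-tumour lungs. Its difference was -1.56 ± 0.36 (adjusted p = 0.0226), and -1.66 with the block (adjusted p = 0.0866). Cyp2a5 had 11.6, 14.2 and 31.9 FPKM in tumours, against 97.9, 42.1, 33.9, 143 and 79.8 FPKM in non-tumour lungs. The highest tumour and the lowest lung nearly met. Its difference was -1.97 ± 0.51 (adjusted p = 0.0329), and -2.10 with the block (adjusted p = 0.0604). Cyp2e1 had 1.01, 2.26 and 1.75 FPKM in tumours, against 5.26, 4.95, 5.67, 8.31 and 7.15 FPKM in non-tumour lungs. The groups were well apart, at -1.81 ± 0.29 (adjusted p = 0.0055) and -1.91 with the block (adjusted p = 0.0564).

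Among the Cyp4f genes, Cyp4f15 had 0.58, 1.49 and 1.01 FPKM in tumours, against 3.79, 3.74, 3.83, 2.61 and 7.79 FPKM in non-tumour lungs. Its difference was -1.98 ± 0.42 (adjusted p = 0.0161), and -1.72 with the block (adjusted p = 0.0777). Cyp4f39 had 1.04, 1.39 and 2.63 FPKM in tumours, against 2.90, 4.38, 4.65, 4.02 and 3.49 FPKM in non-tumour lungs. Neither gene's groups overlapped. The difference of Cyp4f39 was -1.14 ± 0.29 (adjusted p = 0.0324), and -1.20 with the block (adjusted p = 0.0882). The remaining Cyp4f genes were not called. Cyp4f13, Cyp4f16 and Cyp4f17 had log2 fold changes of -0.13 ± 0.20, 0.10 ± 0.11 and 0.33 ± 0.19, and Cyp4f18 had -0.55 ± 0.29.

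Members that missed the threshold included Cyp2j9 at -0.99 ± 0.30 (adjusted p = 0.0593, edgeR), Cyp2d22 at -0.96 ± 0.34 (adjusted p = 0.0935) and Cyp3a13 at 0.58 ± 0.19 (adjusted p = 0.0697). Cyp3a13 had 3.45, 4.69 and 3.37 FPKM in tumours, against 3.24, 2.75, 2.51, 2.37 and 2.82 FPKM in non-tumour lungs, without overlap. Cyp2d22 had 7.22, 8.48 and 22.7 FPKM in tumours 1, 3 and 6, against 18.1 to 32.8 FPKM in non-tumour lungs. Without tumour 6, 10 members were lower and 2 higher in edgeR, in a fit that called 4066 of 15670 genes, against 2134 of 15459 with all libraries. The adjusted p was then 0.0013 for Cyp2d22, 0.003 for Cyp2j9 and 0.0287 for Cyp3a13. Calls were also lost to single libraries. The adjusted p of Cyp2a5 was 0.102 without tumour 1, 0.127 without tumour 3, 0.065 without lung 1, 0.0515 without lung 6 and 0.0605 without lung 7. That of Cyp4b1 was 0.0952 without tumour 3 and 0.0513 without lung 2. That of Cyp4f39 was 0.104 without tumour 1, 0.132 without tumour 3, and 0.0739, 0.073, 0.0557 and 0.0503 without lungs 2, 3, 6 and 7.

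Cyp2c40 was the member that was higher in tumours. In mouse it belongs to a group of Cyp2c enzymes that act on arachidonic acid. It had 163, 41.6 and 22.8 estimated counts in tumours 1, 3 and 6, against 0 in each of the 5 non-tumour lungs. These counts equal 3.17, 0.95 and 0.57 FPKM. Set against a floor of 3 counts over the non-tumour group, Cyp2c40 was at least 133-fold higher in tumours (adjusted p = 0.0104 in edgeR, 0.0525 with the block). Most of the counts were in tumour 1, without which the bound was at least 60.4-fold (adjusted p = 0.0097, edgeR). With no count in non-tumour lungs, Cyp2c40 passed the low-count filter through the tumours alone, so its p depends on that selection. In edgeR without the filter, 49 members were tested, with 3 higher and 8 lower. The neighbours Cyp2c69 and Cyp2c68 had 42.4 and 14.9 estimated counts summed over the tumours, against 0 in non-tumour lungs, and were too low to be tested. All 3 were highest in tumour 1. Of the 75-base runs in Cyp2c40 transcripts, 45.9% also occur in other genes, and the values carry decimals in all 3 tumours, so how the reads divide among these genes is uncertain. In the 20 other libraries together, Cyp2c40 had 10 counts and Cyp2c69 and Cyp2c68 had 1 each.

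Hepatocyte genes moved beside Cyp2c40. Of 9 measured hepatocyte genes, 5 were tested and 4 were higher in tumours, or 2 with the block (Alb and Hnf4a). Over all genes tested, 7.2% were called higher without the block. In KO non-tumour lungs at 18 against 10 months, 3 hepatocyte genes were tested. Some therefore passed the low-count filter here only with the tumours, so their p depends on that selection. The list summed to 6.50 to 38.3 FPKM in tumours, against 1.44 to 2.03 FPKM in non-tumour lungs. The transcription factor gene Hnf4a had 0.99, 6.51 and 0.66 FPKM in tumours, against 0.04 to 0.11 FPKM in non-tumour lungs, and was highest in tumour 3 rather than in tumour 1. The albumin gene Alb had 5.10, 12.4 and 2.60 FPKM in tumours, against 0.19 to 0.65 FPKM. The hepatocyte genes Ttr and Fgb were at 0 in all tumours. A set of 14 members known for high levels in liver, such as Cyp2c29, Cyp3a11 and Cyp2d9, had 33 counts over the 3 tumours. None was above 0.23 FPKM, and 17 of the counts were of Cyp4a14 in tumour 1. Over the 5 non-tumour lungs the set had 24 counts, with none above 0.07 FPKM. The 5 lungs held more counts in total than the 3 tumours, so these pooled counts are not on the same scale. The set of 14 was chosen after values had been seen. The part of these genes in the Cyp2c40 result was not tested.

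Lung cell markers differed in tumours as well, where 6.6% of all genes tested were called lower and 7.2% higher. Club cell genes were lower for 7 of 11, with sums of 31199 to 47391 FPKM in tumours and 101186 to 169250 FPKM in non-tumour lungs. Most of each sum was Scgb1a1, which was lower by a log2 fold change of -1.74 ± 0.32. The other 4 club cell genes were not called. With the block, Muc5b and Scgb3a1 lay above 0, at log2 fold changes of 0.92 and 0.21. Ciliated cell genes were lower for 10 of 10, with sums of 449 to 597 FPKM in tumours and 1096 to 1716 FPKM in non-tumour lungs. Alveolar type 2 cell genes were higher for 8 of 9, with sums of 49494 to 99280 FPKM in tumours and 21798 to 37233 FPKM in non-tumour lungs. Adipocyte genes were lower for 2 of 5, with sums of 2.18 to 8.27 FPKM in tumours and 17.0 to 48.5 FPKM in non-tumour lungs. No defining club, ciliated or type 2 gene was at 0 in tumours. Fibroblast genes were lower for 3 of 9, with sums of 847 to 1536 FPKM in tumours and 2457 to 2924 FPKM in non-tumour lungs. Neutrophil genes were lower for 3 of 6, with sums of 83.0 to 191 FPKM in tumours and 281 to 398 FPKM in non-tumour lungs. Alveolar type 1 cell genes were lower for 1 of 8, and their sums of 1761 to 2752 FPKM in tumours lay below the 3299 to 4491 FPKM of non-tumour lungs. Endothelial genes were lower for 2 of 9, with overlapping sums. Of alveolar macrophage genes, 2 of 9 were higher and 1 lower, with sums of 1719 to 9216 FPKM in tumours and 846 to 1702 FPKM in non-tumour lungs. At an unadjusted p under 0.05 in edgeR stood 6 of 9 fibroblast, 5 of 6 neutrophil, 7 of 8 type 1, 8 of 9 endothelial and 6 of 9 macrophage genes. Over all genes tested without the block, 4533 of 15459 stood there. The heart muscle, enterocyte and basal cell lists had 0 calls in edgeR over 6, 1 and 1 genes tested, with 1, 0 and 0 at an unadjusted p under 0.05. With the block over the 3 pairs, calls were left for 2 club cell genes (Lypd2 and Scgb3a2), 4 ciliated cell genes and 1 adipocyte gene (Adipoq), all lower. The block called 0 alveolar type 2, type 1, fibroblast, endothelial, neutrophil and macrophage genes in edgeR, with 7, 2, 6, 4, 5 and 6 at an unadjusted p under 0.05, and Scgb1a1 had an adjusted p of 0.115. The part of these cell types in the P450 differences was not tested.

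**Figure D4:**
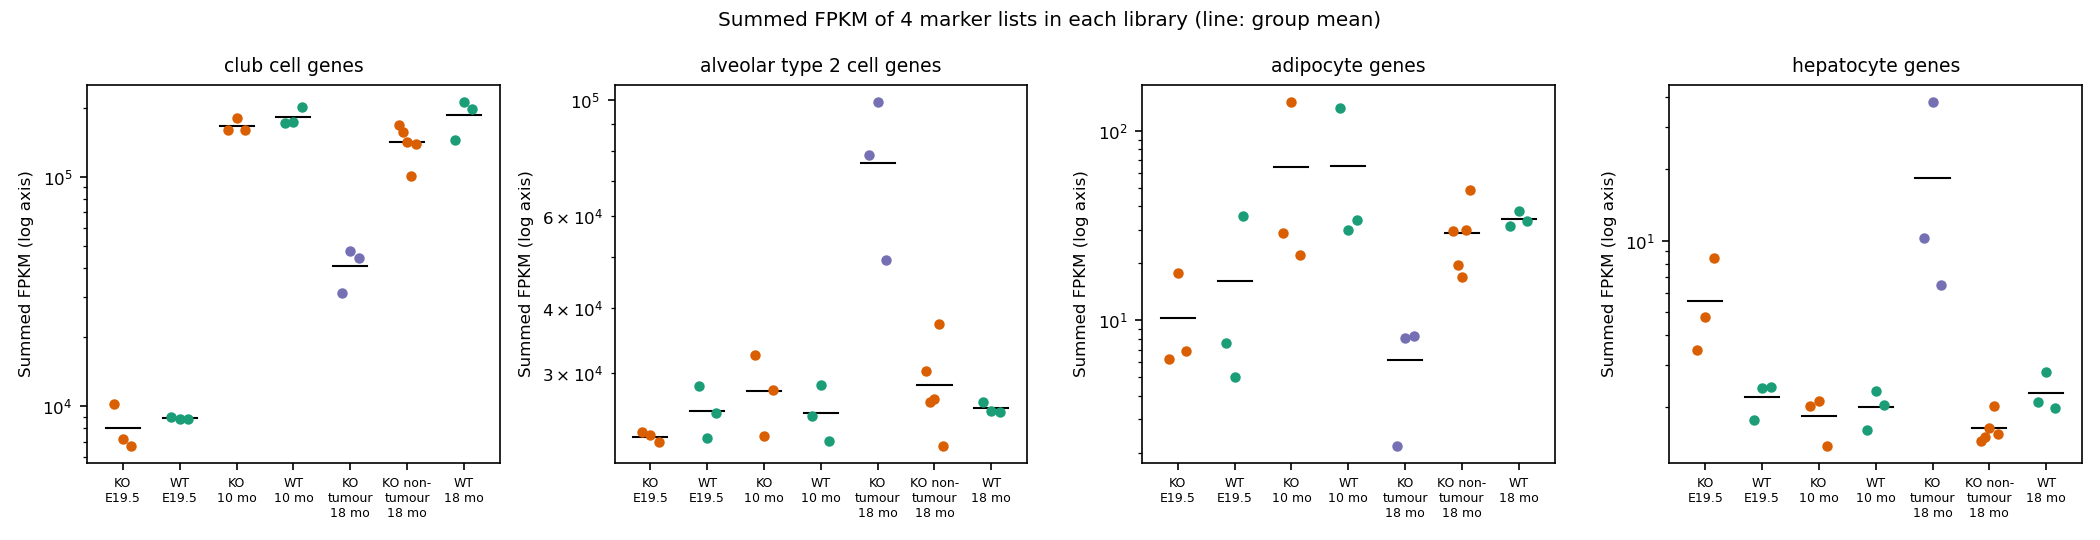
Summed FPKM on a log axis of 4 marker gene lists in each library, with a line at each group mean. In the 3 tumours, club cell and adipocyte sums are below and alveolar type 2 and hepatocyte sums above those of the KO non-tumour lungs, and 1 KO and 1 WT lung at 10 months stand high in adipocyte genes.

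Other genes of the pathway were divided in tumours, where 6.6% of all genes tested were called lower and 7.2% higher. Of 19 other phase I enzymes, 7 were lower and 2 higher, led by the carbonyl reductase Cbr2 at -1.42 ± 0.18, with the reductase Akr1b8 higher at 1.39 ± 0.21. Of 21 phase II enzymes, 5 were lower and 3 higher, led by the sulfotransferase Sult1d1 at -2.93 ± 0.25. In the electron transfer and heme supply list, Pgrmc1, Por and the heme synthesis enzyme Alas1 were lower at -1.25 ± 0.19, -0.55 ± 0.14 and -0.61 ± 0.15, and Hmox1 and Cyb5b were higher at 1.36 ± 0.24 and 0.48 ± 0.11. Among 18 regulators, Nr1i2, the pregnane X receptor that induces Cyp3a genes, was lower at -2.10 ± 0.32, and so was Rxrg at -1.26 ± 0.36. Hnf4a and Cebpa were higher, at 5.08 ± 0.76 and 1.69 ± 0.32. Among 10 transporters, Abcc4 and Slc22a4 were higher, and among 13 P450s of other families Cyp1b1 and Cyp51 were higher, with 0 lower in both lists. With the block over the 3 pairs, the calls left in these 6 lists were Aldh3a1 and Sult1d1, lower, and Hnf4a, higher, each at an adjusted p of 0.0486 in edgeR. The other genes named here were not called with it, from 0.0545 for Nr1i2 to 0.213 for Cyb5b.

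Deletion of Rarres1 was compared at each age, and no P450 member was called. At E19.5, 0 of 19 tested members and 0% of all genes were called by edgeR, with 1 member and 144 genes at an unadjusted p under 0.05. DESeq2 called 2 genes, none of them a member. In edgeR at this age the deleted gene Rarres1 was itself not called, with 0 or 1 counts in KO and 24 to 42 counts in WT embryos. The 0 calls therefore do not show that KO and WT levels were equal. At 10 months, 0 of 22 members were called where 1.52% of all genes were, 0.574% higher and 0.946% lower, and 6 members had an unadjusted p under 0.05. In KO non-tumour lung at 18 months, 0 of 22 were called where 0.0776% of all genes were, 0.0453% higher and 0.0323% lower. Here 2 members and 1243 of all 15463 genes tested had an unadjusted p under 0.05 in edgeR. The median log2 fold change over tested members was -0.07 at E19.5, 0.17 at 10 months and 0.07 at 18 months, where that of all genes was 0.00 at each age. For Cyp2f2 the differences were -0.09 ± 0.10, -0.18 ± 0.08 and -0.24 ± 0.15 at the 3 ages, and for Cyp4b1 -0.09 ± 0.18, -0.12 ± 0.08 and -0.11 ± 0.12.

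For some members the KO and WT values did not overlap although the difference was not called in edgeR. At 10 months these were Cyp2s1, Cyp4f16 and Cyp3a13, given below, and Cyp2a4, Cyp4f13, Cyp4f15 and Cyp4f18. The share of all genes without overlap was not counted, so the values are descriptive only. Cyp2s1 had 82.5, 75.8 and 90.6 FPKM in KO lungs at 10 months, against 101, 102 and 98.2 FPKM in WT lungs. The groups did not overlap, and the difference of -0.28 ± 0.07 had an adjusted p of 0.0899 in edgeR and 0.0107 in DESeq2. At 18 months the difference was -0.21 ± 0.19, with overlap. Cyp4f16 had 11.1, 8.88 and 9.52 FPKM in KO lungs at 10 months, against 7.49 to 8.39 FPKM in WT lungs. At 18 months it had 11.5, 10.1, 12.02, 13.4 and 11.98 FPKM in KO non-tumour lungs, against 8.69, 7.94 and 8.39 FPKM in WT lungs. Every KO lung was above every WT lung at both adult ages, with differences of 0.30 ± 0.10 (adjusted p = 0.166, edgeR) and 0.45 ± 0.10 (adjusted p = 0.229 in edgeR and 0.0098 in DESeq2). Cyp4f16 shares 9.35% of its 75-base runs with Cyp4f37, so part of its count is uncertain. Cyp3a13 had 3.01, 3.41 and 2.66 FPKM in KO lungs at 10 months, against 2.04, 2.18 and 2.46 FPKM in WT lungs, without overlap (0.44 ± 0.14, adjusted p = 0.148, edgeR). At E19.5, Cyp4f39 had 0.32, 0.26 and 0.32 FPKM in KO lungs, against 0.58, 0.55 and 0.94 FPKM in WT lungs. Its difference of -1.19 ± 0.32 had an unadjusted p of 0.0046 and an adjusted p of 1.00 in edgeR.

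**Figure D5:**
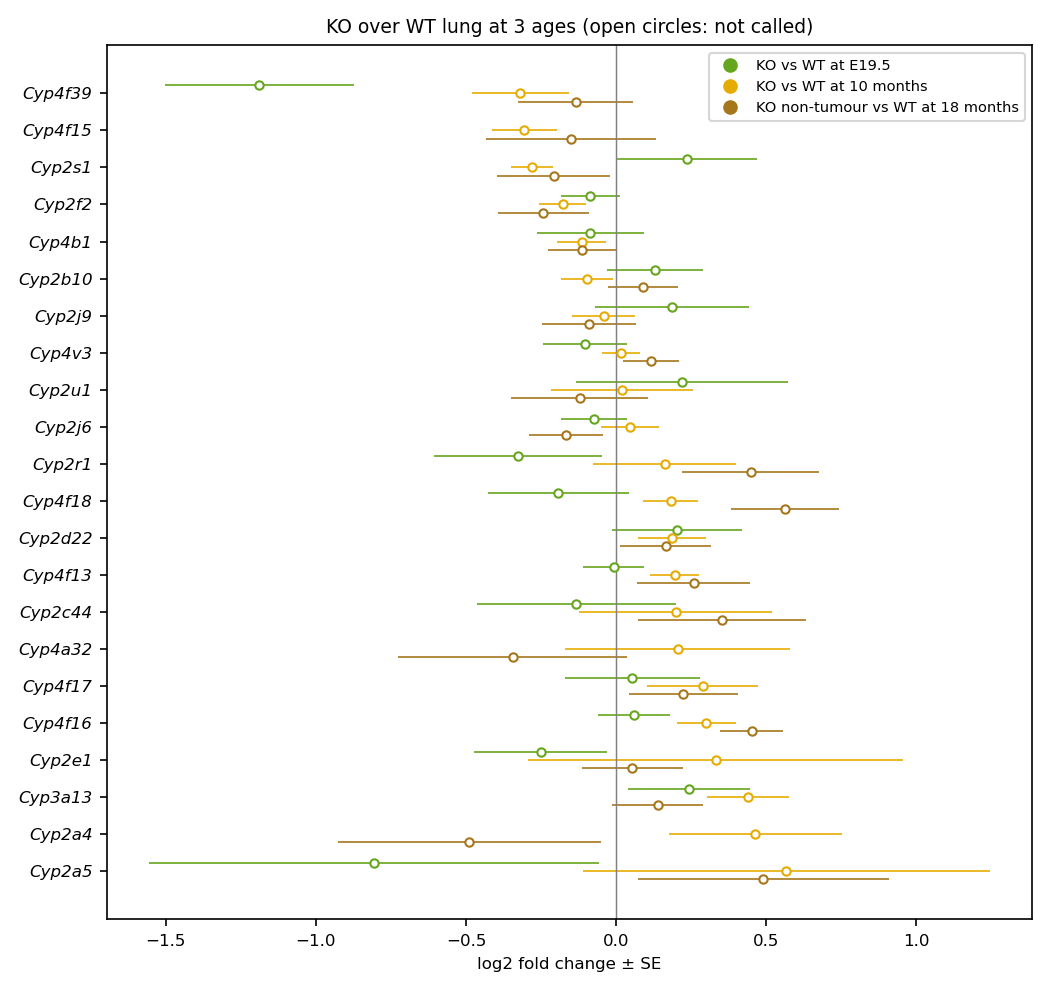
Log2 fold changes ± SE of KO over WT lung for each tested P450 gene at E19.5 (n = 3 and 3), at 10 months (n = 3 and 3) and at 18 months in non-tumour lung (n = 5 and 3). All points are open because none was called, and most lie within 0.5 of 0, with Cyp4f39 at E19.5 the lowest.

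The proline and acidic amino acid-rich basic leucine zipper (PAR bZIP) factors Dbp, Hlf and Tef are circadian regulators that in mouse liver drive detoxification genes. The list of 4 genes also holds their repressor counterpart Nfil3. At 10 months 3 of the 4 were higher in KO lungs, where 0.574% of all genes tested were. At 18 months 2 of the 4 were higher in KO non-tumour lungs, where 0.0453% of all genes tested were. The comparisons did not account for the time of day at which lungs were taken. Dbp had 143, 99.3 and 125 FPKM in KO lungs at 10 months, against 9.38, 10.8 and 9.64 FPKM in WT lungs. None of the 22 P450 members tested in the same lungs was called. The sequence TTANGTAA, which resembles the site these factors bind, was searched on both strands. It was in the promoter of 1 of 59 members (1.69%), Cyp2c38, against 2.72% of all genes. Only this exact pattern in 300 bases per promoter was searched. Variant or more distant sites would be missed, so the search cannot show that members lack a site. Of the other lists, phase I enzymes had Cbr2 higher at 0.43 ± 0.08 and P450s of other families had Ptgis higher at 0.37 ± 0.07 in KO lungs at 10 months. The phase II, electron transfer, regulator and transporter lists had 0 calls in edgeR at 10 months, with 2, 2, 2 and 0 genes at an unadjusted p under 0.05. At 18 months none of the pathway lists other than PAR bZIP had a call, with 1, 1, 2 and 0 genes of the same lists at an unadjusted p under 0.05. Over all genes tested in edgeR, 2670 of 15324 were under it at 10 months and 1243 of 15463 at 18 months.

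Cyp2a5 and Cyp2e1 varied more between lungs of the same group than between genotypes. At 10 months Cyp2a5 was highest in KO lung 2, at 133 FPKM, and in WT lung 1, at 98.4 FPKM, against 32.6 to 56.3 FPKM in the 4 other lungs. Cyp2e1 was highest in the same 2 lungs, at 20.8 and 12.5 FPKM, against 6.31 to 8.18 FPKM in the others. Those 2 lungs also stood apart in adipocyte genes, at summed levels of 143 and 132 FPKM, against 22.1 to 33.9 FPKM in the others. The same held for heart muscle genes, at 855 and 1365 FPKM against 76.8 to 553 FPKM. Of the club cell list, the airway secretory genes Bpifa1, at 653 and 610.4 FPKM against 10.9 to 57.6 FPKM, and Scgb3a1, at 581 and 689 FPKM against 36.6 to 91.9 FPKM, were also highest there. The sum of the whole club cell list, nearly all Scgb1a1, did not stand apart there. It was 181432 FPKM in KO lung 2 and 172297 FPKM in WT lung 1, against 159893 to 200839 FPKM in the others. The part of fat, heart muscle and airway cells in the Cyp2a5 and Cyp2e1 levels was not tested. Between KO and WT lungs at 10 months, the log2 fold change of Cyp2a5 was 0.57 ± 0.68 (adjusted p = 0.731, edgeR). At 18 months Cyp2a5 spread from 33.9 to 143 FPKM over KO non-tumour lungs and from 36.4 to 72.7 FPKM over WT lungs.

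From 10 to 18 months the P450 levels of the lung were not shown to differ. In KO lungs, 0 of 22 tested members and 0% of all genes were called at 18 months against 10 months by edgeR, with 3 members and 782 genes at an unadjusted p under 0.05. In WT lungs the counts were 0 of 22 and 0%, with 2 members and 833 genes. DESeq2 called 11 genes in KO and 21 in WT lungs, none of them a member. Cyp2e1 had the lowest p of the members in WT lungs. It had 6.30, 5.47 and 5.63 FPKM in WT lungs at 18 months, against 12.5, 6.44 and 8.18 FPKM at 10 months, without overlap (-0.63 ± 0.23, adjusted p = 0.891, edgeR). Its difference in KO lungs was -0.91 ± 0.36 (adjusted p = 0.893). Cyp4f18 in KO lungs had 13.9, 8.64, 14.5, 15.8 and 14.9 FPKM at 18 months, against 9.36, 9.48 and 9.80 FPKM at 10 months, with overlap through lung 2 (0.46 ± 0.17, adjusted p = 0.893). The genotype effect was not shown to differ between 18 and 10 months for any of 22 tested members (0 called by edgeR and by DESeq2 and 0 at an unadjusted p under 0.05, with 0% of all genes called by edgeR).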

How the data were processed

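The authors made the deposited estimated counts and FPKM values per gene from reads trimmed with Trimmomatic 0.36, aligned by STAR 2.5.2b to mm10 and quantified by RSEM 1.3.0, per the submitters' processing notes. Each of the 23 libraries had a column in both tables. The members and gene lists (13 of cell markers, 7 of pathways) were chosen with earlier results of these data known.

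Counts were rounded, and every comparison used the whole gene table of the groups compared in edgeR 4.0.16 (R 4.3.3, TMM scaling, default low-count filter, robust quasi-likelihood F test, two-sided). Adjusted p is Benjamini-Hochberg over all genes tested, and a gene was called under 0.05. Alternatives were DESeq2 1.42.0, limma 3.58.1 on log2(FPKM + 0.1) or log2(FPKM + 1), a fit over all libraries, no filter, DESeq2 size factors, a replicate block and each library left out. Scripts were tested on simulated data. Described members had a mean of at least 1 FPKM in a group or a call. From each list, genes with the lowest adjusted p were named. Added after values were seen were Por, Scgb1a1, Alb, Ttr, Fgb, Bpifa1, Scgb3a1, Muc5b and the genes named as called with the block. Motifs and shared 75-base runs were searched in RefSeq promoters and in annotated transcripts.

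Tumours and non-tumour lungs 1, 3 and 6 were paired because the library codes in the labels share a number, although the titles number non-tumour lung 6 as 4. The labels do not say that a number marks an animal. The correlations of their deviations from the group means were 0.356, 0.0985 and 0.0981. Tumour 1 correlated best with the non-tumour lung of its own number, and tumours 3 and 6 with a lung of another number. The labels do not state that libraries came from separate animals, so the spread behind each p may be technical. In 28 within-group pairs of libraries, chi-square per degree of freedom was 6.72 to 228, so none differed by counting error alone. Floors cover counting error only.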

Additional observations from a re-analysis of the deposited data

Results flagged for a closer look

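Of 23 members examined in the 5 KO non-tumour lungs at 18 months, 4 had a single lung far from the others by Dixon's test, which chance gives in about 1 of 20 groups. Cyp4f15 was high in lung 7, at 7.79 FPKM against 2.61 to 3.83 FPKM in the others. Cyp4f17 was high in the same lung, at 3.92 FPKM against 2.41 to 2.84 FPKM. Cyp2j9 was low in lung 1, at 3.21 FPKM against 4.53 to 4.98 FPKM. Cyp4f18 was low in lung 2, at 8.64 FPKM against 13.9 to 15.8 FPKM.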

How the results depend on the processing

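For P450 members, no called direction reversed under any alternative tried. The number of called members moved by more than 1.5 times in 3 comparisons. In tumours over KO non-tumour lung, the replicate block (3 pairs by code number) called 0 members, against 9 without it, and leaving out single libraries gave 6 to 12. For KO over WT at 10 months, DESeq2 called 1 member (Cyp2s1), and the fit without the 2 lungs highest in fat cell genes, chosen after the values were seen, called 1 (Cyp2a5), against 0. Those lungs also have the highest Cyp2a5 level of each genotype, so that fit is no test of Cyp2a5. For KO non-tumour over WT at 18 months, DESeq2 called 1 (Cyp4f16), against 0. In all other comparisons the replicate numbers do not pair the samples, and the block moved no count of members by that much. Over single members and settings, 3423 kept their side of the threshold, 50 lost a call and 16 gained one, and the causes were not tested. Counts over all genes depended on the setting. For tumours they were 3400 with DESeq2, 5158 with a fit over all libraries, 135 with the block and 1074 to 4066 with a library left out, against 2134. For KO over WT at 10 months they were 586 with DESeq2, 41 with the fit over all libraries, 63 with the block, 87 to 134 with limma and 66 to 205 with a library left out, against 233. At 18 months they were 157 with DESeq2, 26 with the fit over all libraries and 3 to 26 with a library left out, against 12. For the change of the genotype effect between E19.5 and 10 months they were 107 with DESeq2 and 6 with the fit over all libraries, against 25.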

Other observations

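Some members stood out in a single library. Cyp2w1 had 33 counts (1.06 FPKM) in WT embryo 3 and at most 3 counts in any of the 22 other libraries. Cyp2a5 was also higher there than in the other embryos, at 1.34 FPKM against 0.21 to 0.41 FPKM. The same library had a summed level of 558 FPKM over basal and squamous cell genes, against at most 3.55 FPKM in any other. Cyp4a14 had 17 counts in tumour 1 and 2 in the 20 libraries that are no tumour. Cyp1a1, a family 1 gene outside the set that aryl hydrocarbon receptor ligands induce, had 21.4 FPKM in tumour 6 and 33.5 FPKM in non-tumour lung 6, which shares its code number, against at most 3.99 FPKM in any other library. That lung also had the highest Cyp2a5 level, 143 FPKM.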
